A study of Mus musculus with 4 samples.

Results

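The genes described here are 10 receptors, surface proteins and transcription factors of the endocardium and endothelium: Tek, Tie1, Kdr, Flt1, Pecam1, Emcn, Egfl7, Nfatc1, Klf2 and Klf4. They were chosen by name, with every probe set whose annotation gives 1 of these symbols, which is 17 probe sets for 10 of the 12393 genes named on the array. Tissue was dissected from wild-type C57BL/6 mouse hearts at embryonic day 10.5 to 11.0, with no allele altered and no agent given. One group was the atrioventricular (AV) junction, where the valve cushions form, and the other was the ventricular region. Each was dissected from about 80 hearts, and its RNA, 230 ng for the junction against 250 ng for the ventricles, was amplified and read on 2 arrays of the type Affymetrix MOE430A, labelled 1a and 1b. The labels do not say whether a region's arrays came from separate tissue, so the p-values measure the spread between these arrays, which may be technical. An exact two-sided permutation test of 2 arrays against 2 cannot give a p under 0.3333, so all tests are limma's, fitted over all 13403 probe sets tested.

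The endocardium is the endothelial lining of the heart. At the AV junction a part of its cells leaves the lining and fills the cushions as mesenchyme, while over the ventricles it covers the muscular trabeculae. Kdr and Flt1 are receptors for vascular endothelial growth factor (VEGF), and Tek and Tie1 form the receptor pair of the angiopoietins. Nfatc1 is a calcium-regulated factor of the endocardium needed for valve growth, and Klf2 and Klf4 are zinc finger factors induced in endothelium by blood flow.

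Among these genes the AV junction read higher for 3, Klf4, Nfatc1 and Tek, and lower for 1, Egfl7. Fitted folds were 3.28 for Klf4, 2.60 for Nfatc1 and 1.98 for Tek in favour of the AV junction, and 2.14 for Egfl7 in favour of the ventricular region. The VEGF receptors Kdr and Flt1, the sialomucin gene Emcn and Klf2 were tested and did not pass. Tie1 and Pecam1 gave no reading above background. In all, 8 of the 10 genes and 13 of the 17 probe sets passed the floor on mean intensity, and 4 of the 8 genes passed the test at an adjusted p of at most 0.05, where 15.0% of all 8410 genes tested did (8.47% higher and 6.54% lower in the AV junction). Of the 13 probe sets 3 were higher and 3 lower, where 13.8% of all probe sets tested passed (7.24% higher and 6.58% lower). The arrays of the regions did not overlap for 7 of the 8, against 62.4% of all genes tested. The median log2 fold was 0.33 over the 8 genes and −0.06 over all genes.

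The labels bear on dissected regions and not on sorted cells. Cushion mesenchyme had 7 of 10 tested marker genes higher in the junction, chamber muscle had 7 of 8 lower, and epicardium and epithelium 2 of 8 lower. Summed over each list, erythroid genes read 41310 to 42450 in the junction against 77530 to 84860 in the ventricles, hepatic genes 7255 to 7688 and 622.8 to 688.6, and myeloid and platelet genes 5349 to 5523 and 4893 to 5147. In bulk RNA, fewer endothelial cells and less RNA per endothelial cell cannot be told apart. The part of these other cell types in the results on the 10 genes was not tested. The brightest control of Bacillus subtilis, taken as background, read 58.6 and 52.6 in the junction against 97.9 and 104 in the ventricles. Probe sets in the dimmest of 5 equal bins of intensity had a median log2 fold of −0.21, and those in the brightest 0.02.

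Promoter sequences are shown for the gene with the largest rise, for its family member that did not pass, and for the gene that fell. They are the 250 bases before a RefSeq start site (GRCm38.p6), 5′ to 3′ on the gene's strand, at chr4:55532476-55532725 (minus strand) for Klf4, chr8:72318812-72319061 (plus strand) for Klf2 and chr2:26580833-26581082 (plus strand) for the first of 3 Egfl7 start sites. Capitals mark matches on either strand, which can overlap or touch. The letters searched were GGAAGT for the ETS family, CACCC for the Krüppel-like factors (KLF), AGATAA for the GATA family, GGGCGG as the GC box and TATAAA as the TATA box. The MEF2 search asked for CTA, any 4 bases, then TAG.
Klf4: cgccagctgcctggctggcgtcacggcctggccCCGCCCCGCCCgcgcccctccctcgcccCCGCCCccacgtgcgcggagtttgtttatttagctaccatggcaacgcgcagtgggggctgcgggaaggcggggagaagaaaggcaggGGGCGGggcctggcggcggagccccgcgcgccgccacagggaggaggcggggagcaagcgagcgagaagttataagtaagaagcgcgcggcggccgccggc
Klf2: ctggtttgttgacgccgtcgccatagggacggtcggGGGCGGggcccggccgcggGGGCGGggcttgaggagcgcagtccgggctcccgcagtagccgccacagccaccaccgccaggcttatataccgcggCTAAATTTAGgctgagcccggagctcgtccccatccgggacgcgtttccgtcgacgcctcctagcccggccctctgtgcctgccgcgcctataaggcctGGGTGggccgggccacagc
Egfl7: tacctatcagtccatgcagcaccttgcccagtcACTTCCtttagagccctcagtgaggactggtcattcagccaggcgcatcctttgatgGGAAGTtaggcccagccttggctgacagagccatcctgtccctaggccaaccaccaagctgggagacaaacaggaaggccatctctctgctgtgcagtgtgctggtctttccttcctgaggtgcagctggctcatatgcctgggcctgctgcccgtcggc
The Klf4 window held 4 GC boxes and no other match. The Klf2 window held 2 GC boxes, 1 KLF match and the MEF2 match CTAAATTTAG, 118 bases before the start site. The first Egfl7 window held 2 ETS matches. Of the Egfl7 windows not shown, the second held ETS and KLF letters and the third held GC boxes. Of 32851 promoter windows of this length, 32.7% held a GC box, 52.0% a KLF match, 19.7% an ETS match and 3.20% a MEF2 match. Windows were found for 8 of the 10 genes, not for Pecam1 and Nfatc1. Of the 10 windows of those 8 genes, 6 held KLF letters, 5 GC boxes and 5 ETS letters. Counted by gene, with 3 windows for Egfl7, KLF letters occurred for 6 genes and GC boxes for 5. ETS letters occurred for Tie1, Kdr, Flt1 and Egfl7. The MEF2 letters occurred for Klf2 alone and a TATA box for Flt1 alone, where 12.4% of all windows held a TATA box. The GATA letters occurred for 0 genes, where 9.99% of all windows held them.

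**Figure D1:**
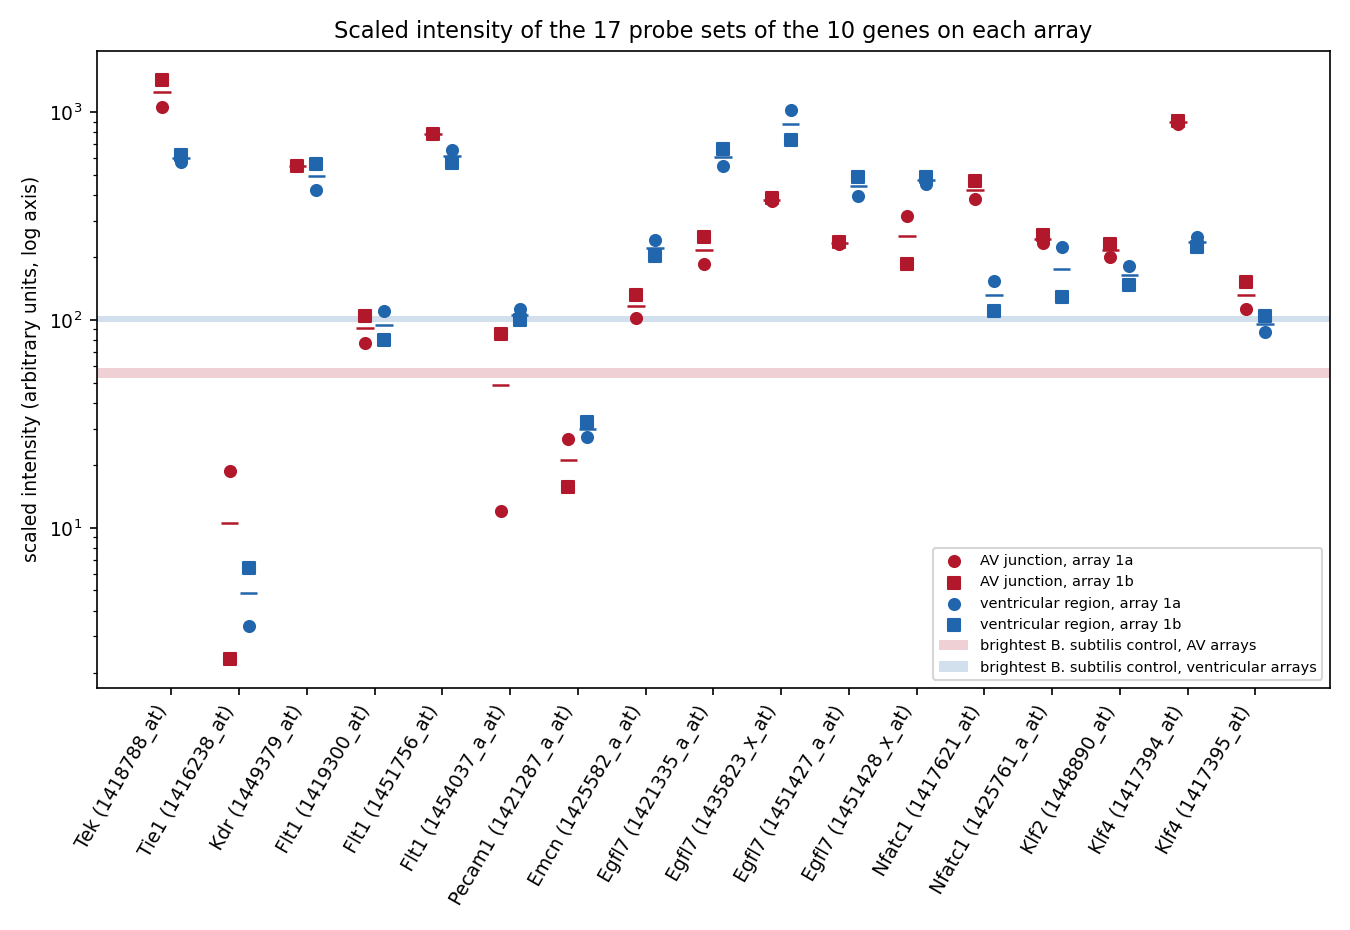
Scaled intensity (log axis, arbitrary units) of each of the 17 probe sets on the 2 AV junction arrays (red) and the 2 ventricular arrays (blue), with short lines at the mean of each region and bands spanning the brightest Bacillus subtilis control on the arrays of each region. Tie1 and Pecam1 lie below the bands on every array, the first Klf4 probe set separates the regions widely, and the Egfl7 probe sets lie higher on the ventricular arrays.

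Tek encodes the receptor tyrosine kinase Tie2, which binds the angiopoietins. It read 1062 and 1432 in the junction against 577 and 624 in the ventricles, in scaled intensity. Both AV arrays lay above both ventricular arrays, with the wider spread within the AV junction (1247 ± 261 against 600.1 ± 33.1, mean ± SD, n = 2 arrays). The log2 fold was 0.98 with an SE of 0.16 (limma, adjusted p = 0.00935). Without ventricular array 1a the adjusted p was 0.0547 at a log2 fold of 0.93, and with eBayes fitted without trend it was 0.0512.

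Tie1, the partner of Tek that binds no angiopoietin by itself with high affinity, read 18.8 and 2.35 in the junction against 3.35 and 6.37 in the ventricles. All 4 values lay under the background of their array, so the single Tie1 probe set gave no comparison of the regions.

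Kdr, the main signalling receptor for VEGF, read 553 and 549 in the junction against 423 and 565 in the ventricles. The ventricular arrays lay on either side of the AV arrays. The log2 fold of 0.16 had a 95% interval from −0.23 to 0.54 and did not pass (limma, adjusted p = 0.545), and without ventricular array 1a it was −0.033. The interval leaves differences of that size in either direction undetected with these arrays.

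Flt1, the VEGF receptor that binds the ligand tightly and signals weakly, has 3 probe sets. The brightest (1451756_at) read 786 and 788 in the junction against 655 and 572 in the ventricles. The AV arrays were nearly equal and lay above both ventricular arrays. The log2 fold was 0.34 with a 95% interval from 0.04 to 0.64, and it did not pass after adjustment (limma, adjusted p = 0.123). With median scaling of the arrays it rose to 0.54 and passed (limma, adjusted p = 0.0324). The other probe sets were too dim to be tested. Of these, 1419300_at read 77.7 and 105 in the junction against 110 and 79.8 in the ventricles, and 1454037_a_at read 12.1 and 85.5 against 112 and 99.9. On both the AV mean lay below the ventricular mean (91.3 against 95.1 and 48.8 against 106), the reverse of the brightest probe set. Each had arrays under background, the regions overlapped on 1419300_at, and neither adds a test to the comparison.

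Pecam1 encodes an adhesion molecule of endothelial junctions that is also carried by platelets and white blood cells. Its 1 probe set read 26.8 and 15.8 in the junction against 27.5 and 32.2 in the ventricles, under the background on each of the 4 arrays. No statement on Pecam1 in these regions can be drawn from it.

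Emcn encodes endomucin, a sialomucin on the surface of endocardium and capillaries. It read 103 and 131 in the junction against 244 and 203 in the ventricles. Both AV arrays lay below both ventricular arrays and above their own background. The log2 fold was −0.71 with a 95% interval from −1.23 to −0.20, and it did not pass after adjustment (limma, adjusted p = 0.073, unadjusted p = 0.0134). It did not pass under any of 13 alternatives that kept it, with log2 folds from −0.93 to −0.42.

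Egfl7, a protein that endothelial cells secrete into their matrix, is the gene with the most probe sets here. Its brightest probe set (1435823_x_at) read 373 and 384 in the junction against 1025 and 731 in the ventricles. The ventricular arrays differed from each other by more than the AV arrays did, and the regions did not overlap. The log2 fold was −1.10 with an SE of 0.17 (limma, adjusted p = 0.0089). The call held under all 15 alternatives, with log2 folds from −1.33 to −0.87 and an adjusted p of up to 0.0483.

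The other 3 Egfl7 probe sets were lower in the AV junction too, by unequal amounts. 1421335_a_at read 185 and 250 in the junction against 551 and 666 in the ventricles, a log2 fold of −1.30 (limma, adjusted p = 0.00563). 1451427_a_at read 232 and 238 against 396 and 487, a log2 fold of −0.78 that passed (limma, adjusted p = 0.0244). Leaving out any single array ended that call (adjusted p up to 0.12), as did dropping the floor or the variance trend, and it stood at the threshold with median scaling. 1451428_x_at read 318 and 186 against 453 and 489, a log2 fold of −0.82 that did not pass (limma, adjusted p = 0.0529). The probe sets read transcripts of 1 gene and are not replicates. Probe sets whose names end in _x_at can share probes with other transcripts, and the brightest Egfl7 probe set is such a one, whereas 1421335_a_at is not.

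The Egfl7 gene also holds the microRNA miR-126 in its span, an endothelial regulator of VEGF signalling whose level the arrays do not measure. Its mature sequence (RefSeq, GRCm38.p6, chr2:26591402-26591423, plus strand) is shown because it shares the host transcript of the gene that fell, with the seed, bases 2 to 8, in capitals.
miR-126a-3p: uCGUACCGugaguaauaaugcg
Erythroid transcripts were higher on the ventricular arrays, as Egfl7 was, and their part in the Egfl7 result was not tested.

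**Figure D2:**
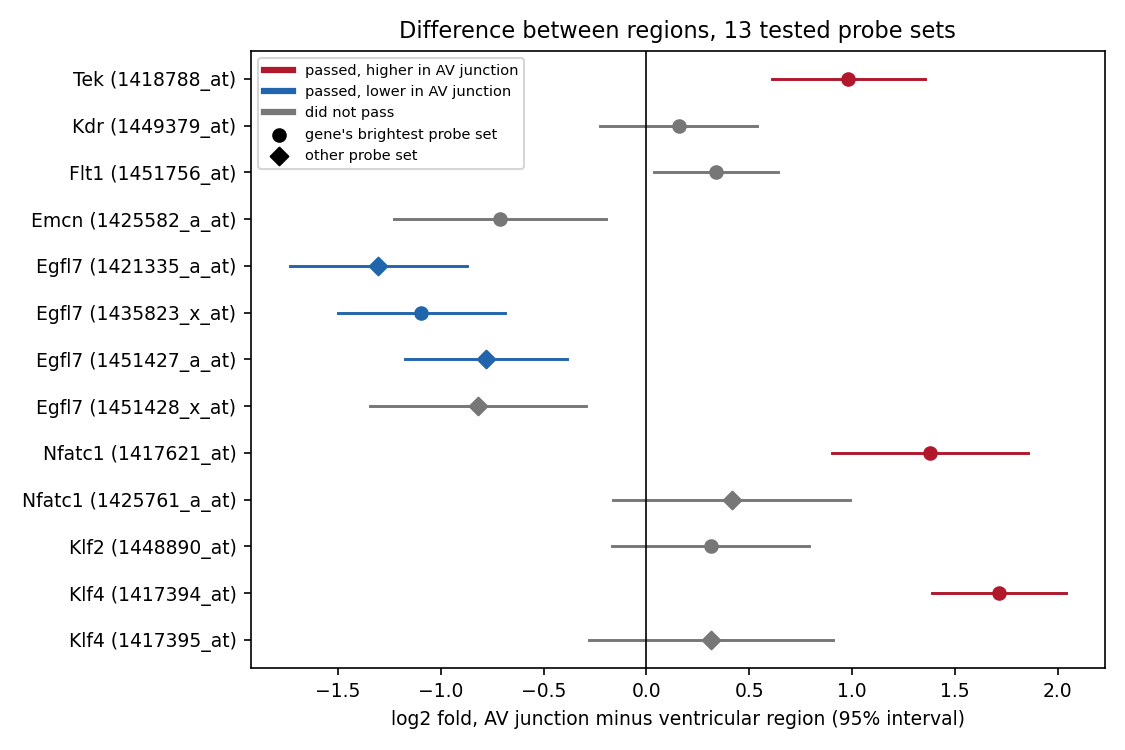
Log2 fold (AV junction minus ventricular region) with its 95% interval from the limma fit for the 13 tested probe sets, with circles for the probe set that stands for the gene and diamonds for others. Klf4, Nfatc1 and Tek pass to the right of 0, 3 of 4 Egfl7 probe sets pass to the left, and the second probe sets of Klf4 and Nfatc1 have intervals that include 0.

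Nfatc1 enters the nucleus when calcineurin removes its phosphates, and in the heart tube it marks endocardium. Its brighter probe set (1417621_at) read 381 and 465 in the junction against 154 and 111 in the ventricles. The AV arrays lay above the ventricular arrays, which were themselves close to their background of 97.9 and 104. The log2 fold was 1.38 with an SE of 0.20 (limma, adjusted p = 0.00682). The call held under all 13 alternatives that kept the gene, with log2 folds from 0.90 to 1.68. The lowest of these came from averaging both Nfatc1 probe sets. The second probe set (1425761_a_at) read 234 and 257 against 225 and 129. Its AV arrays were higher as well, by a log2 fold of 0.41 that did not pass (95% interval −0.16 to 0.99, limma, adjusted p = 0.287).

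Klf4 had the largest difference of the genes described. Its brighter probe set (1417394_at) read 880 and 906 in the junction against 252 and 224 in the ventricles. Arrays of a region nearly coincided (893 ± 18.9 against 238 ± 19.9, n = 2 arrays), and the gap between regions was wider than the spread within them. The log2 fold was 1.71 with an SE of 0.14 (limma, adjusted p = 0.000658), which lies above those of 99.5% of the probe sets tested. It passed under all 15 alternatives, with log2 folds from 1.01 to 1.91 and an adjusted p of up to 0.0105. The second probe set (1417395_at) was dim, at 113 and 152 in the junction against 87.8 and 104 in the ventricles, of which neither was above background. Its log2 fold was 0.31 and did not pass (limma, adjusted p = 0.429). The lowest fold of the alternatives came from averaging both probe sets.

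Klf2, the family member best known as a flow sensor of endothelium, read 201 and 232 in the junction against 183 and 147 in the ventricles. The AV arrays lay above the ventricular arrays by a small gap. The log2 fold of 0.31 had a 95% interval from −0.17 to 0.79 and did not pass (limma, adjusted p = 0.331). Whether the fold of Klf4 differs from that of Klf2 was not tested.

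A panel of 25 tested endothelial genes outside the 10 served as a reference within each array. Whether the panel follows the endothelial share was not tested. Log2 folds of its genes ran from −0.79 (Robo4) to 2.31 (Aplnr), with a median of 0.05. The mean log2 intensity of the panel was 8.38 and 8.40 in the junction against 8.30 and 8.23 in the ventricles, a difference of 0.12. Measured against that mean within each array, Klf4 stood 1.49 and 1.50 above it in the junction against 0.06 and 0.13 below it in the ventricles. Nfatc1 stood 0.62 and 0.90 below it in the ventricles but 0.38 and 0.61 above it in the junction. Tek stood above it in both regions, by 1.74 and 2.13 in the junction against 1.00 and 1.17 in the ventricles. Egfl7 was the other way round, at 0.35 and 0.36 in the junction against 1.77 and 1.38 in the ventricles. The shifts between regions on this log2 scale were 1.59 for Klf4, 1.26 for Nfatc1, 0.86 for Tek, 0.21 for Flt1, 0.19 for Klf2, 0.03 for Kdr, −0.84 for Emcn and −1.22 for Egfl7. Kdr was the 1 gene whose arrays overlapped on this scale. A floor of 300 left 8 panel genes with a mean log2 fold of 0.58 and a median of 0.35, among them Aplnr (2.31) and Calcrl (1.72). Against that mean the shifts of Kdr and Flt1 turned to −0.43 and −0.25 and that of Tek was 0.40. That of Kdr also turned with quantile normalisation (−0.06) and without ventricular array 1a (−0.14). These are values within arrays, with no test. Whether the shift of 1 gene differs from that of another was not tested, and the values do not show that any gene stayed level.

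**Figure D3:**
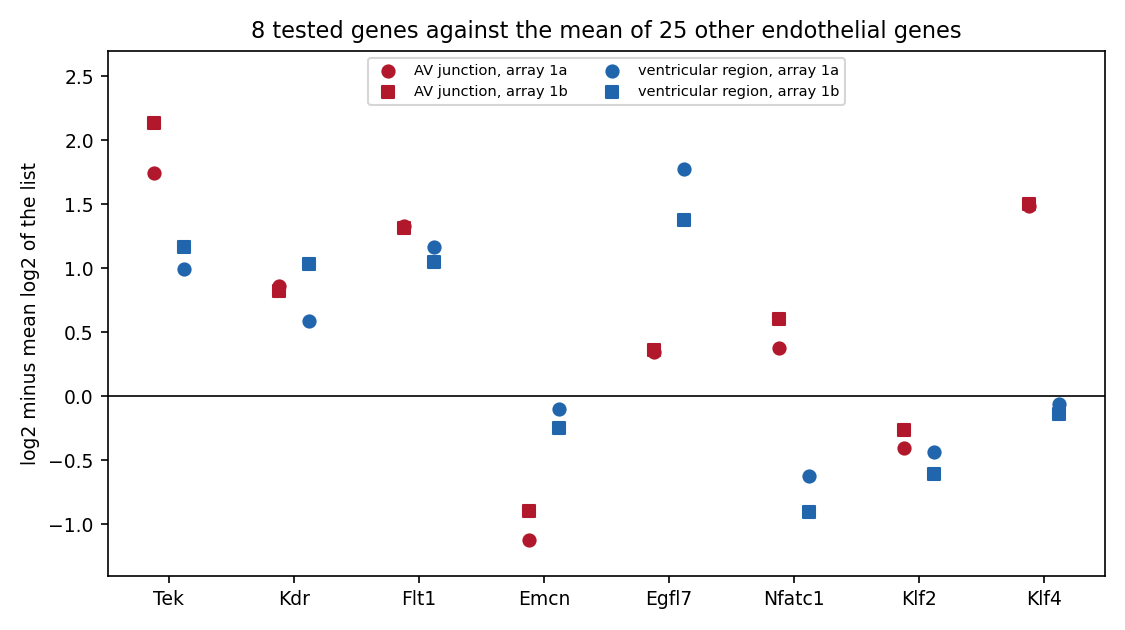
Log2 intensity of the 8 tested genes minus the mean log2 intensity of 25 other endothelial genes on the same array, for the AV junction (red) and ventricular region (blue). Klf4 and Nfatc1 lie above 0 on the AV arrays and below it in the ventricles, whereas Emcn and Egfl7 lie lower on the AV arrays.

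Of the 25 panel genes, which are general endothelial genes, 2 rose in the AV junction, 1 fell and 22 did not pass, with a median log2 fold of 0.05. The apelin receptor gene Aplnr read 1471 and 1343 in the junction against 325 and 180 in the ventricles (log2 fold 2.31, limma, adjusted p = 0.00123), although its second, dimmer probe set did not pass, at 150 and 132 against 76.4 and 84.8, both ventricular values lying under background. Calcrl, a receptor for adrenomedullin, read 1066 and 741 against 258 and 215 (log2 fold 1.72). Robo4, an endothelial guidance receptor, fell by a log2 fold of 0.79, a call lost without any 1 of the 4 arrays and with median scaling. The junction cadherin gene Cdh5 did not pass, at 302 and 284 against 221 and 270. Cdh5 is named because it defines endothelium, after its values were seen.

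Of 16 tested transcription factor genes of endothelium 4 rose, 2 fell and 10 did not pass, with a median log2 fold of 0.14. Sox17, a factor of endocardium and arteries, rose by a log2 fold of 1.12 (698 and 544 against 276 and 239) on a probe set ending in _x_at. Its other probe set, too dim to be tested, went the other way. That one read 34.2 and 93.5 in the junction against 115 and 120 in the ventricles, with AV array 1a under background. The ETS factor gene Elk3 rose by 1.04 (994 and 1011 against 462 and 461). Hhex rose by 0.80 and Lyl1, a factor shared with blood cells, fell by 0.69, and neither passed without any 1 array (limma, adjusted p up to 0.0727 and 0.101). Both genes that fell, Lyl1 and Etv2 (log2 fold −0.67, named after its values were seen), also lost their calls with median scaling (limma, adjusted p = 0.0504 and 0.1), where 6 of the 16 were higher and 0 lower. Without 1 array 2 to 3 were higher and 0 lower. Among 3 tested endocardial genes, Gata5, a factor that works with Nfatc1 in endocardium, rose by 0.80 (830 and 807 against 440 and 455), and 2 did not pass. A second Gata5 probe set read 170 and 217 against 182 and 158, a log2 fold of 0.14 that did not pass (limma, adjusted p = 0.673).

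Ligands and co-receptors of the VEGF and angiopoietin systems, with the lymphatic receptor gene Flt4, did not pass at the brightest probe set of each gene. Of 6 tested genes of this kind 0 rose and 0 fell with limma, and 1 of the 6, Vegfa, had an unadjusted p under 0.05. The VEGF ligand gene Vegfa read 631 and 625 in the junction against 844 and 840 in the ventricles (log2 fold −0.40, limma, adjusted p = 0.0668), and it was the 1 gene of the list that fell with a floor of 300 or with the values as deposited. The ligand gene Vegfd went the other way on all 3 of its tested probe sets. Its probe set 1449528_at rose by a log2 fold of 0.76 (limma, adjusted p = 0.0358). The brightest gave 0.33 and the remaining one 0.17, and neither passed. With _x_at and _s_at probe sets dropped 1 gene of the list rose. The co-receptor gene Nrp1 read 2606 and 1716 against 2236 and 2402. Angpt1 and Pgf were not above background on any array, and these 2, Flt4 and Vegfd are named after their values were seen.

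The list of the calcineurin route that activates Nfatc1, which also holds the other Nfat factor genes, was split. Of 10 tested 3 rose, 2 fell and 5 did not pass, with a median log2 fold of 0.05. Ppp3ca, a catalytic subunit of calcineurin, read 1425 and 1485 in the junction against 726 and 662 in the ventricles (log2 fold 1.02, limma, adjusted p = 0.0023). The related factor genes Nfatc3 and Nfatc4 rose by 0.80 and 0.76, while Nfatc2 fell by 0.84, a call lost without ventricular array 1a. Rcan1, a calcineurin inhibitor that is itself induced by this route, read 1532 and 1507 against 2509 and 2497 and fell by 0.70. Rcan1 lies outside the rule for naming genes and was chosen after its values were seen. A second probe set of Ppp3ca rose as well, by 0.95 (limma, adjusted p = 0.00445), while another gave −0.12 and did not pass. The other tested probe set of Nfatc4 gave 0.11 and did not pass. When _x_at and _s_at probe sets were dropped, 1 of 9 tested genes rose.

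Of 9 other Krüppel-like factor genes tested 2 rose, 0 fell and 7 did not pass with limma, with a median log2 fold of 0.16, and 2 had an unadjusted p under 0.05 in the downward direction. Klf9 read 1273 and 1398 in the junction against 782 and 784 in the ventricles (log2 fold 0.73, limma, adjusted p = 0.00812), while its other tested probe sets gave 0.44 and 0.66 and did not pass. Klf6 rose by 0.81, a call lost without AV array 1b or either ventricular array. Another Klf6 probe set (1418280_at), left out by the floor, went the other way, at 81.1 and 53.6 in the junction against 135 and 130 in the ventricles. Klf1, the erythroid member, read 304 and 347 against 477 and 485 and did not pass. Klf1 is named after its values were seen.

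The list of the flow-sensing route, from the cerebral cavernous malformation (CCM) proteins to targets of Klf2 and Klf4, had 2 of 12 tested genes that rose, 0 that fell and 10 that did not pass with limma, and 0 fell at an unadjusted p under 0.05. Thbd, a thrombomodulin gene induced by flow, read 461 and 507 in the junction against 248 and 69.4 in the ventricles. Its log2 fold of 1.50 passed (limma, adjusted p = 0.0414) but rests on a ventricular level of which 1 array of 2 cleared background, and the call was lost without either AV array or ventricular array 1b. Ccm2, an adaptor of this route, rose by 0.47 on its brightest probe set, a call lost without either AV array or ventricular array 1a, while its other probe sets gave −0.12 and −0.50 and did not pass. The nitric oxide synthase gene Nos3, a target of Klf2, read 309 and 315 against 285 and 336, and is named after its values were seen. Over the endothelial, VEGF and endocardial lists together 7 of 50 tested genes rose and 3 fell, beside the 15.0% of all genes tested that passed.

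**Figure D4:**
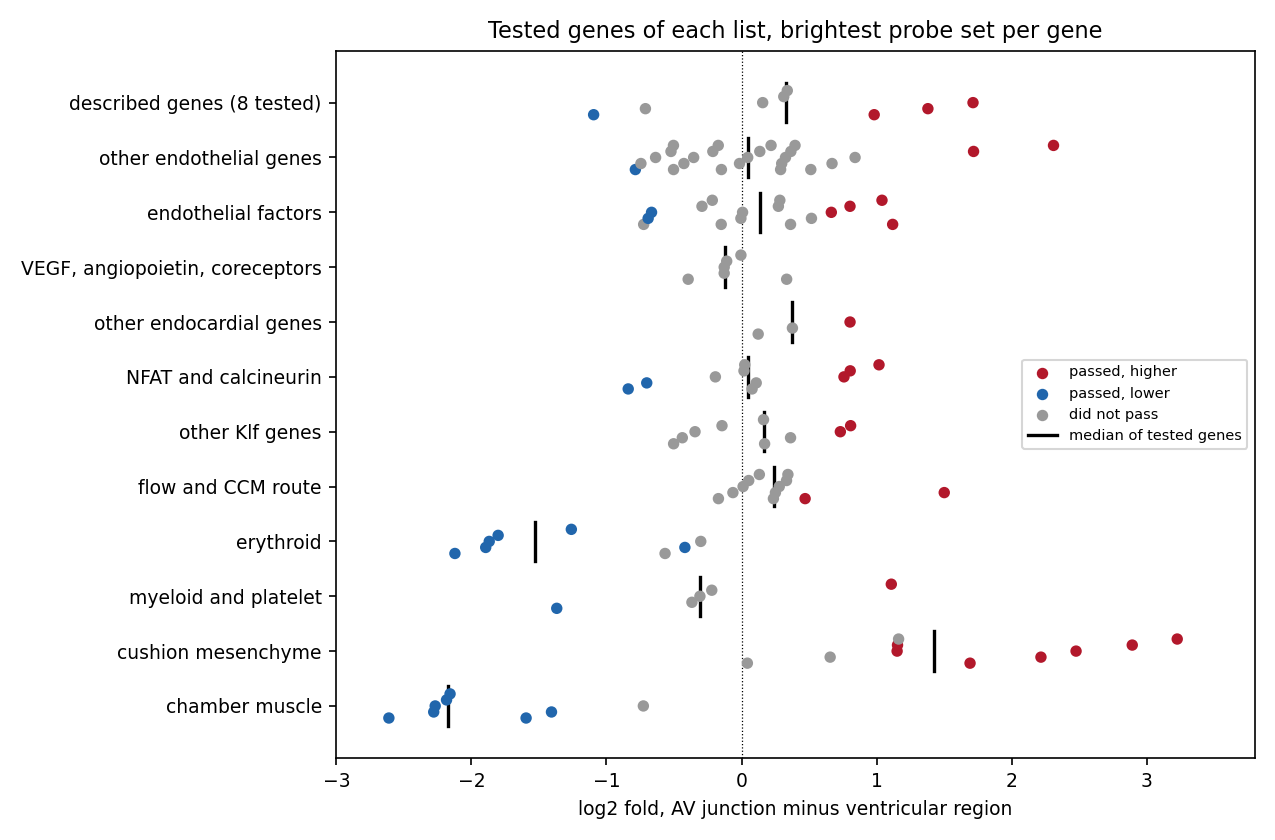
Log2 fold (AV junction minus ventricular region) of tested genes at their brightest probe set, coloured by whether they passed, with a black line at each median. The genes described and the lists are shown, apart from the hepatic list and the list of epicardium and epithelium. The endothelial, VEGF and endocardial lists have medians between −0.12 and 0.38, whereas cushion mesenchyme lies to the right (median 1.43) and chamber muscle and erythroid genes to the left (medians −2.17 and −1.53).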

How the data were processed

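Linear MAS5 intensities were deposited by the authors, 1 for each probe set on each array, per the submitters' processing notes. No version, detection call or genome build is given in the sources used here. The table holds 22690 probe sets, 64 of them controls. A gene name was used where the platform annotation gave 1 symbol (20380 probe sets). Scaling gave every array the same mean of 500 over the other 22626 probe sets, with 2% trimmed at each end. The 13403 with a mean of at least 100 were fitted with limma 3.58.1 (lmFit, eBayes with trend, 7.43 total degrees of freedom) in R 4.3.3 as log2 of intensity plus 50, with region as the only term. Benjamini-Hochberg adjustment of the p-values ran over all 13403, and an adjusted p of at most 0.05 passed. Each gene is represented by whichever of its probe sets was brightest on average (mean log2). Every member is named with all its probe sets, and of each other list the up to 4 largest changes that passed, or else the 2 brightest genes. The members and lists were chosen with earlier results of these data known. Background was taken as the brightest of 27 Bacillus subtilis control probe sets on each array. Alternatives were quantile normalisation, median scaling, the values as deposited, pseudocounts of 1 and 200, no floor or one of 300, eBayes without trend, a replicate block, 1 array left out at a time, averaging over a gene's probe sets, and dropping the _x_at and _s_at probe sets. The fit was tested on simulated data. Plots used Python 3.11.15 with matplotlib 3.10.9.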

Additional observations from a re-analysis of the deposited data

How the results depend on the processing

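The calls of Klf4 and Egfl7 held under all 15 alternatives and that of Nfatc1 under all 13 that kept it, and Tek kept its call under 13 of 15. Without 1 array the genes described numbered 2 to 3 higher and 1 lower, the other endothelial genes 5 to 6 higher and 0 lower (from 7 and 3), all probe sets 402 to 534 higher and 254 to 522 lower (from 970 and 882), lowest without ventricular array 1a, and the log2 fold of Kdr, which did not pass, ran from −0.033 (without ventricular array 1a) to 0.35. Such a fit assumes that the lone array of a region varies like those of the other. The count of genes above the endothelial panel was then 5 to 6, from 6. It was 2 with a floor of 300 or with the values as deposited, where Nfatc1 and Klf2 were not tested, and Kdr and Flt1 lay below the mean of the 8 panel genes left (Kdr −0.43 and −0.35, Flt1 −0.25 and −0.19). Median scaling moved the median log2 fold of all probe sets from −0.07 to 0.12, with 1997 higher and 411 lower (82.9% of calls higher, against 52.4%) and 12 and 0 endothelial genes. Without trend all probe sets gave 326 and 343, and 1 endothelial gene fell. Without a floor they gave 580 and 431, and again 1. Averaging the probe sets of a gene gave 643 higher features and 5 lower endothelial genes. The letters a and b of the arrays are labels with no stated pairing, and deviations of arrays with the same letter correlated at 0.0564. With them as a replicate block 1344 probe sets were higher and 1375 lower, 5 endothelial genes fell, the Egfl7 probe set 1451428_x_at passed (limma, adjusted p = 0.018), and no call of the genes described changed at its brightest probe set. The causes of these shifts were not tested. Signal over background limits Tie1, Pecam1, the dim Flt1 probe sets and the second Klf4 probe set. It also limits the fold of Nfatc1, whose ventricular arrays read 1.57 and 1.06 times background at 1417621_at. All results are limited by 2 arrays a region.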
